A study of Mus musculus with 12 samples.

Results

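The miRNAs described here are mmu-miR-1968, mmu-miR-490, mmu-miR-139-5p, mmu-miR-128 and mmu-miR-421, 5 of the 599 probes in a table of small RNA levels from mouse ileum. They were selected on their signal in this table, which was lower in libraries from cecal material recipients than from antibiotic-treated mice, so that difference is given as a description, with no test. All 12 libraries came from male NOD mice, an inbred strain prone to autoimmune diabetes, at postnatal day 23, and all carried the same batch label. The groups were 4 libraries of the cecal material transfer group (cecal transfer below), 4 labelled 1PAT antibiotics (antibiotic) and 4 of untreated mice (control). Whether the recipients of cecal material had an antibiotic course beforehand is not stated in the labels. Dams with their litters were randomised, and the litter of each library is not given, and the p-values therefore reflect variation among libraries, some of which may be from littermates. The labels give ileum and the design text gives intestinal epithelial cells as the source of the RNA.

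A miRNA is cut from a hairpin in a longer transcript and guides silencing proteins to messenger RNAs, chiefly by pairing through its seed, bases 2 to 8 from the 5′ end. Many miRNA hairpins lie inside other genes and can be made from the transcript of that host. The gut wall mixes absorptive epithelium with smooth muscle, nerve, blood vessel and immune cells, each with typical miRNAs. In whole-tissue RNA, fewer cells of a type and less of a miRNA per cell cannot be told apart.

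The sequences below are mature forms that RefSeq holds for these hairpins on mouse build GRCm38.p6, written 5′ to 3′ with the seed in capitals. They are shown because the seed sets which messenger RNAs each miRNA can pair with. Only the miR-139-5p probe names its arm, so both arms are shown for miR-1968 and miR-490. The arm measured by the miR-1968, miR-490, miR-128 and miR-421 probes is not given in the sources used here. The forms miR-139-3p, miR-128-1-5p and miR-128-2-5p are also held but not shown. For miR-421 only the 5p form was held, so its seed below may not be that of the miRNA measured.
mmu-miR-1968-5p: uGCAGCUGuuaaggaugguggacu
mmu-miR-1968-3p: aCCACCUCugcagcuguuaag
mmu-miR-490-5p: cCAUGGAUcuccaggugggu
mmu-miR-490-3p: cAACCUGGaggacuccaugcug
mmu-miR-139-5p: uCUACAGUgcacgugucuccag
mmu-miR-128-3p: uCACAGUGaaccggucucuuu
mmu-miR-421-5p: cUCAUUAAauguuuguugaau

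No seed was shared between any of these 7 sequences, and no other mature entry of the RefSeq table held one of their seeds. Both arms of miR-1968 hold the same run of 13 bases, UGCAGCUGUUAAG. miR-128-3p and miR-27b share 8 bases, UCACAGUG, shifted by a single position, so that their seeds are not the same. For comparison, miR-27b is shown in the same form.
mmu-miR-27b-3p: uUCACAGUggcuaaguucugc

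The hairpins lie on different chromosomes, so they do not form a genomic cluster. Mir1968 lies at chr8:13189031-13189098 on the minus strand, within the span of Grtp1, a gene for a growth hormone-regulated TBC protein. Mir490 lies at chr6:36421742-36421825 on the plus strand, within Chrm2, which encodes a muscarinic acetylcholine receptor of smooth muscle. Mir139 lies at chr7:101475376-101475443 on the plus strand, within the phosphodiesterase gene Pde2a. miR-128-3p comes from 2 hairpins, Mir128-1 at chr1:128202361-128202430 on the plus strand within R3hdm1 and Mir128-2 at chr9:112118636-112118711 on the minus strand within Arpp21. Mir421 lies at chrX:103572921-103572996 on the minus strand within the noncoding gene Ftx of the X-inactivation centre, with the hairpins Mir374b and Mir374c within 5000 bases. Exons and introns were not annotated in the table used.

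Levels are normalised signal, the deposited unit. One count of the nCounter assay, which counts tagged miRNAs without amplification, was worth 0.59 to 0.83 units in cecal transfer, 1.57 to 1.92 units in antibiotic and 0.845 to 1.40 units in control libraries. Signals of different probes are not set against each other.

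miR-1968 had the strongest difference between the groups. Its signal was 27.0, 31.0, 24 and 21.2 in the cecal transfer libraries, 87.0, 104, 90.4 and 110 in the antibiotic libraries, and 61.7, 75.5, 58.6 and 45.8 in the control libraries. The 3 groups did not overlap, with cecal transfer lowest and antibiotic highest.

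miR-490, whose hairpin lies within Chrm2, followed the same order. Its signal was 15.9, 14.8, 13.3 and 9.44 in the cecal transfer libraries, 45.2, 50.3, 36.5 and 39.4 in the antibiotic libraries, and 16.9, 32.9, 29.3 and 27.5 in the control libraries. The groups again did not overlap, although control replicate 1 lay only just above the highest cecal transfer library.

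miR-139-5p, known for its loss in human colorectal tumours, was the steadiest of the 5 within groups. Its signal was 50.7, 47.9, 48.1 and 57.2 in the cecal transfer libraries, 85.2, 68.2, 80.8 and 85.0 in the antibiotic libraries, and 65.1, 78.7, 69.8 and 69.9 in the control libraries. Cecal transfer lay below both other groups, and antibiotic and control overlapped.

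miR-128, a miRNA enriched in neurons, had a signal of 15.1, 20.9, 20.7 and 22.4 in the cecal transfer libraries, 45.2, 40.6, 25 and 40.9 in the antibiotic libraries, and 26.2, 29.8, 34.9 and 22.9 in the control libraries. All cecal transfer libraries lay below the rest, the nearest control library by less than 1 unit. Antibiotic replicate 3 lay within the control range.

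miR-421, known in human cells to repress the DNA damage kinase ATM, had a signal of 22.2, 26.3, 19.1 and 29.5 in the cecal transfer libraries, 50.4, 26.0, 51.9 and 36.2 in the antibiotic libraries, and 31.3, 32.9, 39.1 and 33.2 in the control libraries. Here antibiotic replicate 2 fell inside the cecal transfer range, so these groups overlapped, while cecal transfer and control did not.

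**Figure D1:**
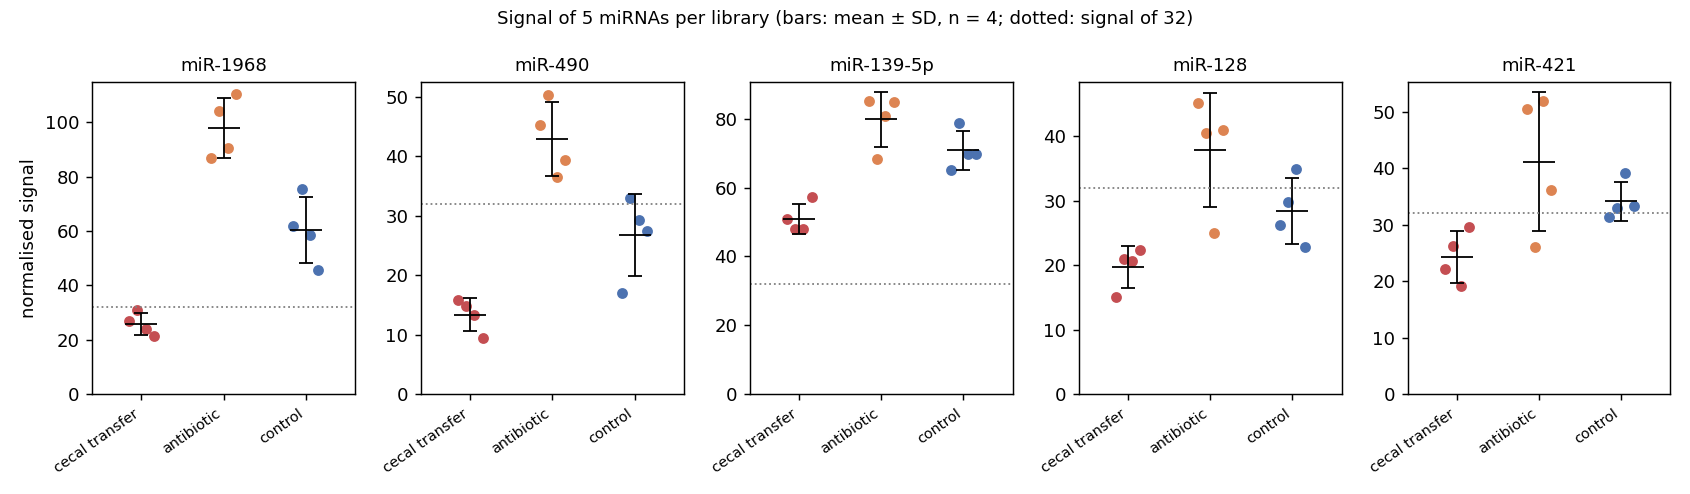
Normalised signal of miR-1968, miR-490, miR-139-5p, miR-128 and miR-421 in each library (points), with the mean and SD of each group of 4 (bars), against treatment group. Cecal transfer libraries lie below all control libraries in each panel, and the dotted line marks the signal of 32 used in the filter on low values.

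By group means, the order was the same for each of the 5 miRNAs, with antibiotic highest, control between and cecal transfer lowest. The choice of members placed cecal transfer below antibiotic, so this order is not independent of it. The signal value of a count had the same order of groups. miR-1968 averaged 25.8 ± 4.19 in cecal transfer, 97.9 ± 11 in antibiotic and 60.4 ± 12.2 in control libraries (SD, n = 4). miR-490 averaged 13.3 ± 2.82 in cecal transfer, 42.9 ± 6.16 in antibiotic and 26.7 ± 6.89 in control libraries. The means of miR-139-5p were 51.0 ± 4.36, 79.8 ± 8.0 and 70.9 ± 5.66 in cecal transfer, antibiotic and control libraries. Those of miR-128 were 19.8 ± 3.23, 37.9 ± 8.88 and 28.4 ± 5.14, and those of miR-421 were 24.3 ± 4.58, 41.1 ± 12.3 and 34.1 ± 3.42, in the same order of groups.

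Cecal transfer against antibiotic is the contrast on which the 5 were picked. Their log2 differences on the log2(signal + 1) scale, which understates changes of weak probes, were −1.89 for miR-1968, −1.62 for miR-490, −0.89 for miR-128, −0.70 for miR-421 and −0.63 for miR-139-5p. The value of miR-490 was −0.59 with log2 depth as a covariate and −2.94 with subtraction of the mean background signal. The median over the 5 was −0.89, beside 0.04 over the 226 mouse probes that passed the filter (signal over 32 in at least 4 libraries). In 4 of the 5 the groups did not overlap, in the direction seen for 13.7% of tested probes. Nothing is read from this count, which the choice of members fixes in large part.

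The 5 were not the only low ones. In all, 10 tested probes had a difference at or below that of miR-139-5p, and 5 of these were not among the chosen miRNAs. They were miR-23b (−1.27), miR-2140 (−1.17), miR-3471 (−1.02), the joint miR-466a-3p/miR-466b-3-3p probe (−0.71) and the enterocyte miRNA miR-194 (−0.69). Just outside lay miR-2132 (−0.57), miR-497 (−0.55) and miR-221 (−0.51).

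The control libraries were not used in the choice. Cecal transfer against control shares its transfer libraries with the contrast that chose the members, so it is not independent evidence of a fall. In this comparison 3 of the 5 miRNAs fell, namely miR-1968, miR-490 and miR-139-5p, beside 11.9% of the 226 tested probes. miR-1968 fell by 1.19 on the log2 scale (SE 0.17, limma adjusted p = 0.000177), which is 2.28-fold. miR-490 fell by 0.93 (SE 0.24, limma adjusted p = 0.0101), and miR-139-5p fell by 0.47 (SE 0.12, limma adjusted p = 0.00934).

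The other 2 did not pass. miR-128 had a log2 difference of −0.50 (95% interval −0.99 to −0.01, limma adjusted p = 0.127) and miR-421 one of −0.49 (95% interval −0.98 to −0.00170, limma adjusted p = 0.132). These intervals are not adjusted for the number of probes. For all 5 the cecal transfer signals lay below all control signals, which held for 12.8% of tested probes. The median difference was −0.50 over the 5 miRNAs, beside 0.05 over all tested probes. Nothing is read from this count or this median, because the same cecal transfer libraries were used to choose the members.

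Antibiotic against control shares its antibiotic libraries with the contrast that chose the members, so high antibiotic values are not independent evidence here either. None of the 5 passed in this comparison by limma, edgeR or DESeq2, beside 0% of tested probes by limma, and 2 of the 5 had an unadjusted p under 0.05 by each tool. Over all tested probes, with limma 34 had an unadjusted p under 0.05 here, edgeR on counts recovered from the signal called 0 (32 unadjusted) and DESeq2 called 3. miR-1968 had a log2 difference of 0.70 (95% interval 0.34 to 1.06, limma adjusted p = 0.0781) and miR-490 one of 0.69 (95% interval 0.17 to 1.21, limma adjusted p = 0.147). The value of miR-490 moved to 0.16 with log2 depth as a covariate and to 2.11 with background subtraction. In both of these miRNAs the antibiotic libraries lay above all control libraries, beside 6.19% of tested probes, from which nothing is read. The differences of miR-128 (0.39), miR-421 (0.22) and miR-139-5p (0.17) had intervals that included 0, and their groups overlapped.

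**Figure D2:**
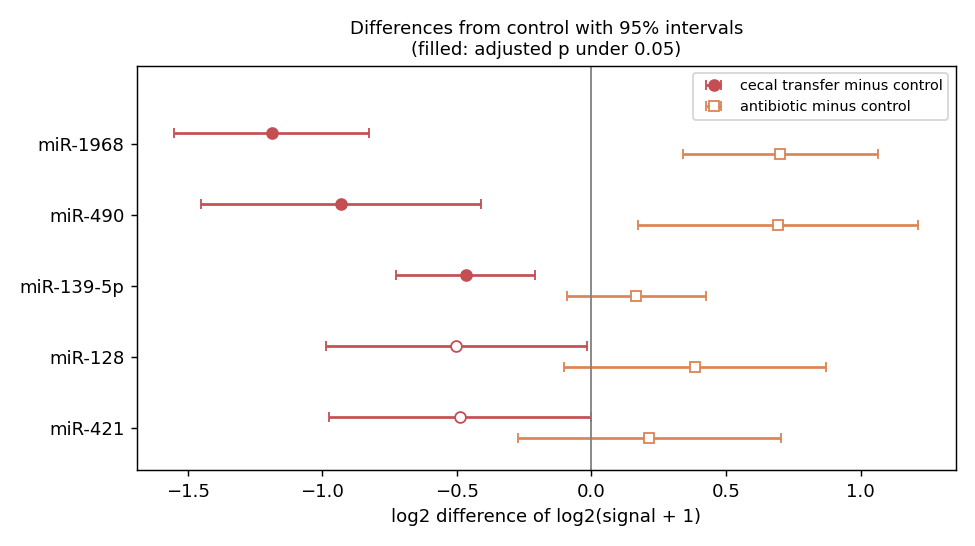
Log2 difference from control (x axis, on the log2(signal + 1) scale) of each of the 5 miRNAs in cecal transfer (circles) and in antibiotic libraries (squares), with 95% intervals. Filled symbols mark a limma adjusted p under 0.05, which were miR-1968, miR-490 and miR-139-5p in cecal transfer, and both comparisons use the same control libraries.

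Depth moved with the groups. The total of counts recovered from the signal was 280114 to 393551 in cecal transfer, 120235 to 148297 in antibiotic and 169844 to 274302 in control libraries. The signal value of 1 count therefore differed by a log2 of −1.26 between cecal transfer and antibiotic libraries, and by −0.61 between cecal transfer and control libraries. A probe with equal counts in these groups would show those differences in signal.

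The recovered counts of the 5 miRNAs were small and separated into 2 patterns. miR-1968 had 29 to 46 counts in the cecal transfer libraries, 47 to 70 in the antibiotic libraries and 40 to 73 in the control libraries. It was the only one of the 5 with fewer counts in every cecal transfer library than in any antibiotic library, although the cecal transfer libraries were 2.40 times as deep on average. miR-490 had 16 to 22 counts in cecal transfer, 19 to 31 in antibiotic and 20 to 31 in control libraries, so its mean count was also lower, at 0.733 times that of antibiotic and 0.771 times that of control libraries.

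For the remaining 3 the mean recovered count of cecal transfer libraries exceeded that of antibiotic libraries, and the lower signal came with the larger total. miR-139-5p had 58 to 97 counts in cecal transfer, 42 to 54 in antibiotic and 50 to 77 in control libraries. miR-128 had 19 to 38, 13 to 26 and 20 to 31 counts in cecal transfer, antibiotic and control libraries, and miR-421 had 23 to 50, 16 to 29 and 28 to 37. Their mean counts in cecal transfer libraries were 1.55, 1.26 and 1.47 times those of antibiotic libraries, short of the 2.40-fold difference in depth.

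Counts of this size also set the precision. At its mean of 18.5 counts in cecal transfer libraries, miR-490 has a counting error of 23.2%, beside a coefficient of variation of 21.1% between the 4 libraries. For miR-139-5p the counting error was 11.7% and the spread 8.56% in the same libraries. The spread of miR-421 between antibiotic libraries, 30.0%, was larger than its counting error of 20.5%. These errors cover counting only.

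**Figure D3:**
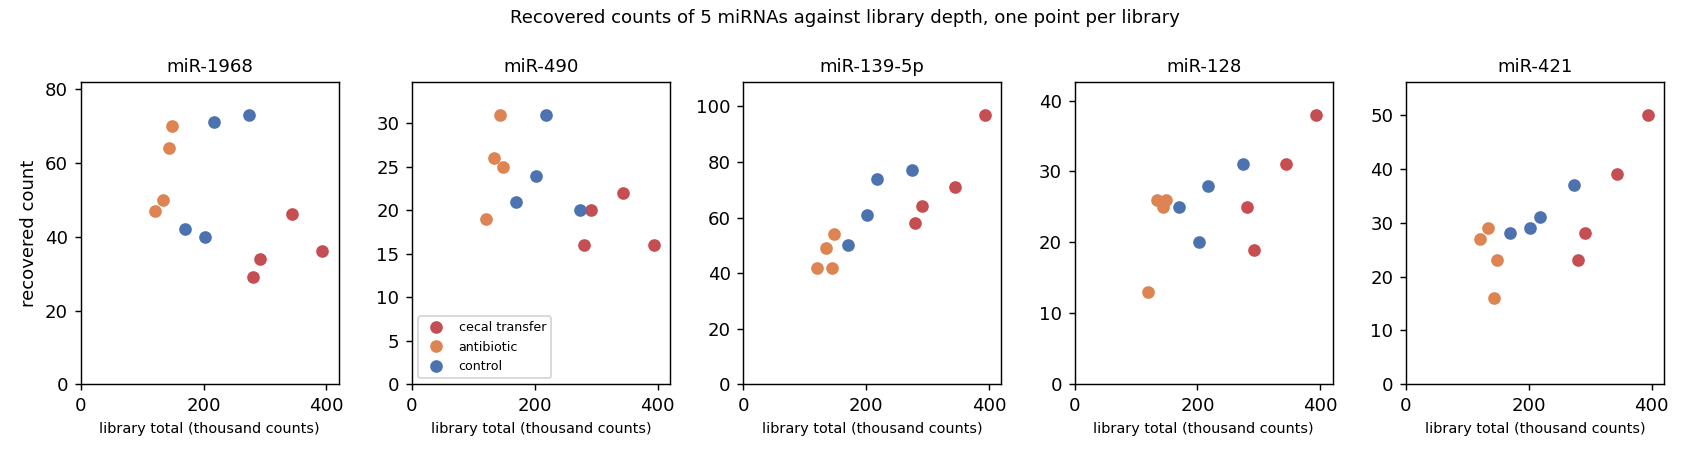
Recovered count of each miRNA (y axis, from 0) against the total recovered count of the library (x axis, scaled as labelled), with 1 point per library coloured by group. For miR-1968 and miR-490 the deep cecal transfer libraries hold few counts (29 to 46 and 16 to 22), whereas for miR-139-5p, miR-128 and miR-421 the highest count, 97, 38 and 50, is that of the deepest library.

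The signals were also set beside background. The panel carries 33 probes for herpesvirus miRNAs, which should have no target in uninfected mouse tissue and were read as background. Their median signal per library was 5.55 to 8.77 in cecal transfer, 7.69 to 13 in antibiotic and 8.5 to 12.6 in control libraries. Of the 60 signals of the 5 miRNAs, 53 exceeded the 90th percentile of the herpesvirus probes in their own library. The rest were miR-490 in every cecal transfer library and in control replicates 1 and 3, and miR-128 in cecal transfer replicate 1. miR-490 came closest to background, with 6 to 14 of the 33 herpesvirus probes at or above it in cecal transfer libraries, against 1 in each antibiotic library and 2 to 5 in control libraries. For miR-139-5p at most 1 herpesvirus probe was at or above it in any library.

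The herpesvirus probes themselves moved with the groups. Their median log2 difference was −0.36 in cecal transfer against antibiotic (21 of 33 lower), −0.35 in cecal transfer against control (24 of 33 lower) and −0.04 in antibiotic against control (17 of 33 lower). In both cecal transfer comparisons the differences of all 5 miRNAs lay below the herpesvirus median, which the choice of members fixes in large part. Nothing is read from that, and single herpesvirus probes reached −2.02 and −1.36. The part of background in the fall of each miRNA was not tested beyond subtraction of the mean herpesvirus signal. With that subtraction miR-1968 kept its call against control (log2 −1.42, limma adjusted p = 0.000741), while miR-490 (log2 −0.83, limma adjusted p = 0.451) and miR-139-5p (log2 −0.39, limma adjusted p = 0.119) lost theirs.

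Depth was also equalised by thinning and, separately, entered as a covariate. The depths of the 3 groups did not overlap, so depth and treatment cannot be told apart in this design. Of the 3 calls against control, that of miR-1968 held in every setting in which it was tested. With all libraries thinned at random, in a single draw, to the shallowest one, miR-1968 had a log2 difference from control of −1.21 (limma adjusted p = 0.00158), whereas miR-490 (−0.63, limma adjusted p = 0.174) and miR-139-5p (−0.24, limma adjusted p = 0.223) did not pass. With log2 depth as a covariate miR-1968 had −1.29 (limma adjusted p = 0.0155), miR-490 had −0.43 (limma adjusted p = 0.552) and miR-139-5p had −0.49 (limma adjusted p = 0.154). All 5 differences stayed below 0 in all of these fits, which share the cecal transfer libraries used to choose the members.

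**Figure D4:**
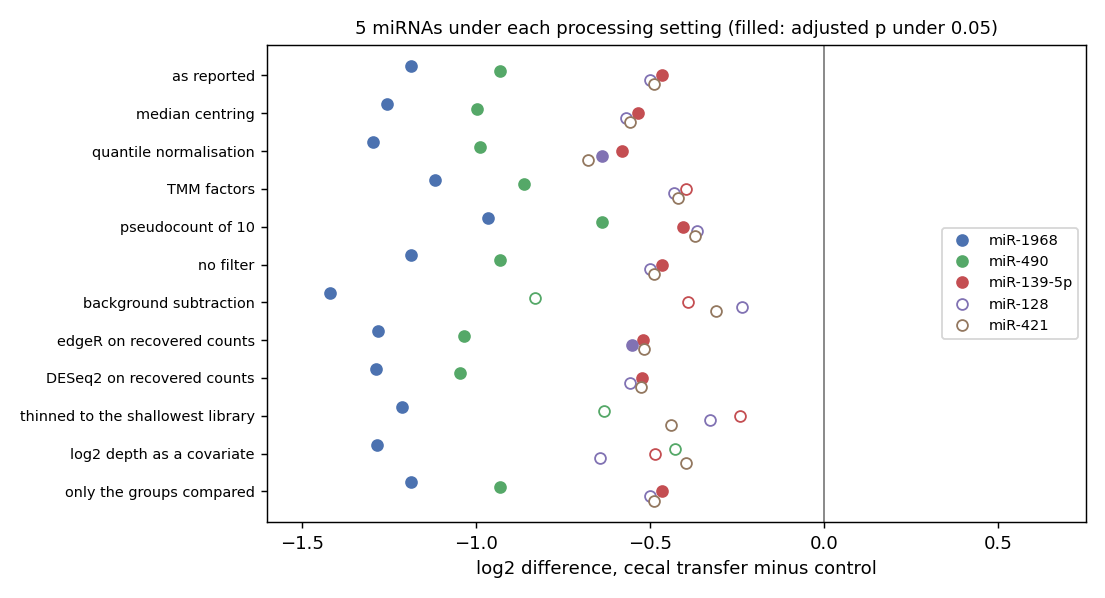
Log2 difference of each miRNA in cecal transfer against control (x axis) under the reported fit and each other processing setting in which all 5 were tested (rows), filled where the adjusted p was under 0.05. miR-1968 is filled in every row and lies farthest left, and no point crosses 0.

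Within the groups the correlations between the 5 miRNAs were mixed in sign. After removal of the group means, Pearson's r over the 12 libraries had a median of 0.03 over the 10 pairs, with 5 pairs above 0. The highest was 0.63 for miR-139-5p with miR-421, the lowest −0.31 for miR-1968 with miR-421, and miR-1968 with miR-490 had 0.36. With the group means left in, the values were 0.57 to 0.93, which the choice of members fixes in large part. The libraries share their depth and scaling across probes, and these values are descriptions with no test. In cecal transfer libraries the counting error exceeded the spread between libraries for each of the 5 except miR-421. In the other groups it exceeded the spread for some and not for others. Counting error alone lowers r, so a median near 0 cannot show whether the miRNAs vary together.

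The tested probes most like each miRNA within groups differed from one miRNA to the next. These are the 3 highest r over all tested probes on only 12 libraries. Values this high can arise among unrelated probes, and none was tested. miR-1968 was most like miR-19b (r = 0.86), miR-876-3p (0.70) and miR-21 (0.68), and miR-490 was most like miR-1955 (0.78), miR-101a (0.69) and the probe for miR-1937a and miR-1937b (0.69). miR-139-5p was nearest to miR-30d (0.75), miR-1224 (0.69) and miR-146b (0.68). miR-128 was nearest to miR-331-3p (0.88), miR-433 (0.82) and the joint miR-466a-3p/miR-466b-3-3p probe (0.78), and miR-421 to miR-340-5p (0.92), miR-1224 (0.90) and miR-466g (0.84). Only miR-1224, for miR-139-5p and miR-421, stood among the 3 nearest of more than 1 of the 5. Over all 12 libraries with group means left in, miR-23b was among the 3 nearest of miR-1968 (0.92), miR-490 (0.90) and miR-139-5p (0.88). miR-23b was itself low in cecal transfer against antibiotic (−1.27), so these values in large part restate that difference.

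Of the tested probes related to the 5 by hairpin, cluster or sequence, namely miR-374, miR-27a and miR-27b, none was called lower in cecal transfer. Of all tested probes 11.9% were called lower against control and 12.8% against antibiotic, so with so few probes nothing is read from this. The other arm of the Mir139 hairpin, miR-139-3p, failed the filter, with a signal of 2.38 to 5.80 in cecal transfer, 1.92 to 6.96 in antibiotic and 5.07 to 11.2 in control libraries, and 19 to 33 of the 33 herpesvirus probes were at or above it. The panel's miR-374 probe carries no letter and could not be tied to Mir374b or Mir374c, the neighbours of Mir421. Its signal averaged 91.4 ± 13.8 in cecal transfer, 112 ± 20.1 in antibiotic and 95 ± 6.05 in control libraries, with a log2 difference of −0.06 in cecal transfer against control (95% interval −0.36 to 0.23, limma adjusted p = 0.786).

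The miR-27 pair, which shares the 8 bases shown above with miR-128-3p, moved the other way in cecal transfer. miR-27b averaged 208 ± 20.7 in cecal transfer, 153 ± 16.0 in antibiotic and 113 ± 14.3 in control libraries, and it rose in cecal transfer against control (log2 0.88, SE 0.12, limma adjusted p = 0.000104). miR-27a averaged 3345 ± 313 in cecal transfer, 2718 ± 116 in antibiotic and 2707 ± 130 in control libraries (log2 0.30 against control, SE 0.07, limma adjusted p = 0.00582). Both were called higher in cecal transfer against control, as were 18.1% of all tested probes. In antibiotic against control the log2 difference was 0.44 for miR-27b (limma adjusted p = 0.0965) and 0.01 for miR-27a (limma adjusted p = 0.980). That of miR-128 was 0.39.

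Markers of the cell types in the gut wall also moved with the groups. Of 8 tested epithelial markers 5 fell in cecal transfer against control, beside 11.9% of all tested probes, and their summed signal was 27391 to 31959 in cecal transfer, 34373 to 39354 in antibiotic and 31332 to 43975 in control libraries. Of 4 smooth muscle and fibroblast markers 3 rose, beside 18.1% of all tested probes, with sums of 38972 to 46937, 31953 to 34387 and 28167 to 35470 in the same groups. Of 8 tested neural markers 0 passed against control by limma, edgeR or DESeq2 (unadjusted p under 0.05 in 3, 1 and 0). With background subtraction 3 passed, and with thinning 1. By limma the 3 with an unadjusted p under 0.05 were higher in cecal transfer, namely miR-129-3p (log2 0.27), miR-137 (0.27) and miR-218 (0.26). The median over the 8 was 0.14, and miR-132 and miR-138 lay just below 0 (both −0.02). The sums of these 8 were 798 to 861, 734 to 873 and 689 to 826. The neural list held 12 probes, and those that failed the filter were weak. Their mean signals in the same groups were 6.04, 18.1 and 12.9 for miR-219 and 2.32, 16.7 and 9.92 for miR-383. Those of miR-153 were 1.65, 3.85 and 5.13, and those of miR-129-5p were 19.8, 13.1 and 22.0. Of 5 leukocyte and 3 erythroid markers 2 each rose, and of 2 endothelial markers 1 fell (18.1% of all tested probes rose and 11.9% fell). The part of cell makeup in the differences of the 5 miRNAs was not tested.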

How the data were processed

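Total RNA of 12 libraries was counted on the NanoString nCounter mouse miRNA panel, version 1.5, per the labels' protocols. The deposited values are normalised signal for 599 probes (566 mouse, 33 herpesvirus). The scaling software is not given in the sources used here. In the deposited signal 100% of values were whole multiples, within 0.01, of the lowest value of their library, so whole counts were recovered; these are not the unit of the main test. The table held no columns of other samples.

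Signal was tested as log2(value + 1) with limma 3.58.1 in R 4.3.3, with a mean-variance trend, in 1 model of the 3 groups over the 226 mouse probes with signal over 32 in at least 4 libraries. P-values were adjusted by the Benjamini-Hochberg method over all tested probes (threshold 0.05). All 5 miRNAs passed the filter; in cecal transfer libraries only miR-139-5p exceeded 32, and miR-490 and miR-128 passed chiefly through antibiotic libraries. The fit was also run on simulated counts with known changes. These had no shift of background between groups, so they do not bear on calls of probes near background.

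Alternatives were other scalings (median centring, TMM factors, quantile normalisation), a pseudocount of 10, other filters (none, or 100), background subtraction, edgeR 4.0.16 and DESeq2 1.42.0 on recovered counts, thinning, depth as a covariate, fits of only the groups compared and each library left out. The named miRNAs were the 5 members, probes related by hairpin, cluster or a shared run of bases, the 3 probes most correlated with each and the 5 lowest non-members; the 3 just outside (miR-2132, miR-497, miR-221) were added after their values were seen. Members and lists were chosen with earlier results of these data known.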

Additional observations from a re-analysis of the deposited data

How the results depend on the processing

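Against control, 3 of the 5 miRNAs fell in the reported fit, 3 with any of the 12 libraries left out, and 1 with background subtraction, with thinning and with log2 depth as a covariate. That 1 was miR-1968 each time. The TMM factors left 2 calls, miR-139-5p being lost (log2 −0.40, limma adjusted p = 0.0554), while quantile normalisation and edgeR gave 4, adding miR-128 (limma adjusted p = 0.0179 and edgeR adjusted p = 0.0474). Over all alternatives other than leaving out a library, the adjusted p against control ran from 5.45e-06 to 0.0155 for miR-1968, from 0.00422 to 0.552 for miR-490 and from 0.00285 to 0.223 for miR-139-5p. No difference of the 5 changed sign in any comparison or setting, and none of the 5 passed in antibiotic against control. The choice of members fixed the signs in cecal transfer against antibiotic, and the comparisons with control share libraries with it. All settings use these same libraries, so the stable signs are not independent evidence. With a filter of 100 none of the 5 was tested.

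The median difference of the 5 in cecal transfer against antibiotic, −0.89, was −1.04 with quantile normalisation, −0.67 with a pseudocount of 10, −1.19 with background subtraction, −0.67 with depth as a covariate, and −1.07 to −0.77 with a library left out. The median within-group r, 0.03, was −0.07 to 0.15 with a library left out.

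Over all probes, cecal transfer against antibiotic gave 74 calls, 161 with no filter (566 probes tested), 0 with depth as a covariate by limma (35 at an unadjusted p under 0.05), and 55 to 82 with a library left out. Cecal transfer against control gave 68 calls (41 higher, 27 lower), 23 with depth as a covariate (20 and 3), and 47 to 67 with a library left out. The split was 28 and 28 with median centring, 26 and 27 with quantile normalisation and 38 and 14 with TMM factors. Antibiotic against control gave 0 calls, 2 with quantile normalisation, 3 with DESeq2, and 0 to 8 with a library left out, namely 8 without control replicate 4, 3 without control replicate 1 and 1 without antibiotic replicate 1. The causes were not tested. Recovered counts of 13 to 97 limit the precision of all 5 miRNAs.

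No paired analysis was possible because the replicate numbers follow the order of the samples and the labels name no litter, day or animal shared between groups.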
